A study of Mus musculus with 2 samples.

Results

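Interferon-stimulated genes are genes whose transcription rises when a cell senses an interferon. A set of 51 of them was followed among the 55357 features counted in 2 mouse single-cell libraries, and all 51 were found by symbol in both libraries. The set holds 11 genes led by type I interferon (the Ifit, Oas and Mx families), 10 genes led by interferon gamma (IFN-γ; the guanylate-binding proteins Gbp and the immunity-related GTPases Irg), 9 regulators, 2 RNA sensors and 19 other effectors. A library is labelled KO, with the genotype given as a knockout of RUNX3, and the other is labelled WT for the same gene. The series' text describes RUNX3-/- mice, tumour models and an interest in natural killer (NK) cells in colorectal cancer. RUNX3 is a transcription factor of cytotoxic lymphocytes. The labels state colon as the tissue, while the sources used here give neither strain, age nor sex, nor the number of animals, the deleted exons or the kind of tumour.

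The library labelled KO held 6573 barcodes and 62465176 unique molecular identifiers (UMIs, each tagging 1 captured RNA molecule), and the WT library held 8800 barcodes and 85367638 UMIs. The filter on UMIs, genes and mitochondrial share kept 5513 barcodes labelled KO and all 8800 of WT, and the highest mitochondrial share of a barcode was 55.5% in the library labelled KO and 20.6% in WT. After removal of possible doublets, 5233 cells labelled KO with a median of 9402 UMIs and 8343 WT cells with a median of 8281 UMIs remained. There is 1 library per genotype, so differences have no replicate check and are not tested. Intervals are 95% intervals and cover counting error only. Runx3 was read in the library labelled KO at 192 counts per 1000000 UMIs (CPM), against 255 CPM in WT, and in NK gate cells at 845 CPM, against 711 CPM in WT. These counts do not separate transcripts of an intact allele from those of a deleted one, so they do not check the genotype label. No cell of either library carried UMIs of 3 or more of 9 epithelial markers, so the cells measured hold no detectable epithelium of the labelled tissue. The libraries also differed in sex type. Cells with Xist and no Y-linked UMI (female-type) numbered 2863 in the library labelled KO and 1 in WT, and cells with Y-linked UMIs and no Xist (male-type) numbered 1255 and 6629. Sex type and genotype label therefore cannot be told apart for the female-type cells, and values for male-type cells alone are given for the macrophage, T, NK and dendritic gates. Cells with UMIs of both kinds numbered 430 in the library labelled KO and 2 in WT. Of the 121 mesenchymal cells labelled KO, 14 were female-type, 4 male-type and 1 had UMIs of both kinds, too few to compare. Of the 180 mesenchymal WT cells, 19 were male-type and 1 female-type. Most cells of this gate thus carried neither kind of transcript, at medians of 17680 UMIs labelled KO and 13886 in WT. Over all cells, 13.1% labelled KO and 20.5% of WT carried neither. Whether the mesenchymal cells carry the genotype of their library label was not tested. The libraries share 17 barcodes.

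Type I interferons bind the receptor IFNAR1/IFNAR2, whose kinases JAK1 and TYK2 activate a complex containing STAT2 and IRF9 that binds the interferon-stimulated response element (ISRE) in antiviral genes. IFN-γ, made mainly by T and NK cells, binds IFNGR1/IFNGR2, and signalling through JAK1 and JAK2 then acts on the gamma-activated site (GAS) and induces IRF1, which drives Gbp and Irg genes. Many genes answer both cytokines, so the grouping names the leading inducer and is no exclusive assignment. In tumours, macrophages and monocytes are known to carry both programmes.

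RefSeq promoter sequences (GRCm38.p6) were available for 37 of the 51 genes and are shown for 6 of them, because both pathways are known to act through these elements. The 250 bases before the transcription start were searched on both strands for ISRE letters (GAAA, any 2 bases, then GAAA, which reads TTTC, any 2 bases, then TTTC on the other strand) and for GAS letters (TTCNNNGAA, its own reverse complement). Capitals mark the matches. IFIT1 binds viral RNA, Ifit1 and Ifit3 belong to the type I led group, and OAS3 makes the oligoadenylate that activates RNase L. GBP2 and GBP5 coat vacuoles of pathogens, and the product of Igtp is a GTPase of the same defence. The sequences, each 5′ to 3′ on the gene's strand, lie at chr19:34640639-34640888 (Ifit1, plus), chr19:34583279-34583528 (Ifit3, plus), chr5:120777660-120777909 (Oas3, minus), chr3:142620413-142620662 (Gbp2, plus), chr3:142496684-142496933 (Gbp5, plus) and chr11:58199306-58199555 (Igtp, plus).
Ifit1: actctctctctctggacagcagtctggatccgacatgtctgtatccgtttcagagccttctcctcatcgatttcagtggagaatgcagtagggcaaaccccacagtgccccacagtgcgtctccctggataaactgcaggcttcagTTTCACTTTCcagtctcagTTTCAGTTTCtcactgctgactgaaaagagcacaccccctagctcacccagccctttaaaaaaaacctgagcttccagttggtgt
Ifit3: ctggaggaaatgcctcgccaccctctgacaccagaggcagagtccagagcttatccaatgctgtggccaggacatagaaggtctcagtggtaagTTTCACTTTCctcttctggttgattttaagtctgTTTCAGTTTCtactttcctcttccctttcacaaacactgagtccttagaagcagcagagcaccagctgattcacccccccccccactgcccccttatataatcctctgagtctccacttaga
Oas3: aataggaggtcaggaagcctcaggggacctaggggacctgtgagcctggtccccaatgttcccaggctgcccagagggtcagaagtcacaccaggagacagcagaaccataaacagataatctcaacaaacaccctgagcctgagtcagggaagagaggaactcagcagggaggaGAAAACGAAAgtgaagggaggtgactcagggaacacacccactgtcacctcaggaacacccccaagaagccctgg
Gbp2: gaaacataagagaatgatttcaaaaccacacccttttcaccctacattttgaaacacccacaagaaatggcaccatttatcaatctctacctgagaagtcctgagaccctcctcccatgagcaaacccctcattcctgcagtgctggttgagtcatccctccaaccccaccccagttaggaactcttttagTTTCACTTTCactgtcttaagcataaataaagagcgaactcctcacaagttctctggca
Gbp5: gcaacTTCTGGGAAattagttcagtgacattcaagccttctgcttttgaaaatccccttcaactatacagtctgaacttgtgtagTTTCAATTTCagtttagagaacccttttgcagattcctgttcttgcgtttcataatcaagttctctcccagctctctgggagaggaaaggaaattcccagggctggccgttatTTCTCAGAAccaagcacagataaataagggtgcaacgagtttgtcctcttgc
Igtp: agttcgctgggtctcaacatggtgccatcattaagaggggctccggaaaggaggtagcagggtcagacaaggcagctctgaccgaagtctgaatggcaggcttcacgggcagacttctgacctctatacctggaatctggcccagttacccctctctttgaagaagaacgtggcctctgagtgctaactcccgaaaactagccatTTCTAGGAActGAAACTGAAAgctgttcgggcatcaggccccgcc
Ifit1 and Ifit3 each hold 2 ISRE matches and no GAS match, and Oas3 and Gbp2 each hold 1 ISRE match. Gbp5 holds 1 ISRE match and 2 GAS matches, and Igtp holds 1 of each. Over the whole set, 19 of the 37 genes had an ISRE match, 10 had a GAS match, 6 had both and 14 had neither. Among all 32851 promoters in the same table, 2.98% held an ISRE match and 7.02% a GAS match, against 44.4% and 22.2% of the 45 promoter entries of the members. An ISRE match was present in 5 of 8 type I led and in 7 of 8 IFN-γ led genes with a promoter, and a GAS match in 2 and 4 of them. Letters alone thus do not separate the groups, and a match is no evidence of binding.

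Cells were gated by marker genes that exclude the 51 members, and 5 gates held at least 50 cells in each library. The macrophage or monocyte gate held 3605 cells labelled KO and 5588 WT cells, and the T gate 387 and 952. The NK gate held 66 and 211 cells, the dendritic gate 127 and 200, and the mesenchymal gate 121 and 180. The levels of the type I led and IFN-γ led groups were distributed differently over these gates. Summed over the 11 type I led genes, the level was 192 CPM (interval 188 to 197) in macrophages labelled KO and 300 CPM (296 to 305) in WT. Dendritic cells had 187 CPM (164 to 213) in the library labelled KO and 260 CPM (237 to 285) in WT, and mesenchymal cells had 193 CPM (176 to 210) and 203 CPM (187 to 221). T cells carried less, 74.9 CPM (63.8 to 87.4) in the library labelled KO and 99.7 CPM (90.7 to 109) in WT. NK cells had the lowest sum in the library labelled KO, 28.4 CPM (16.2 to 46.1), which rests on 16 UMIs, against 100.002 CPM (84.1 to 118) in WT. T and NK cells of WT thus had neighbouring levels with overlapping intervals, and so did the macrophage, dendritic and mesenchymal gates of the library labelled KO.

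Summed over the cells of a gate, the 10 IFN-γ led genes were highest in mesenchymal cells of both libraries. Their sum was 804 CPM (770 to 840) in mesenchymal cells labelled KO, against 825 CPM (791 to 859) in WT. Macrophages followed with 531 CPM (524 to 538) in the library labelled KO and 616 CPM (609 to 623) in WT. T cells had 445 CPM (417 to 474) in the library labelled KO and 377 CPM (359 to 396) in WT. T was the only gate of the 5 with a higher pooled sum in the library labelled KO, but the mesenchymal sums had overlapping intervals. With each cell thinned to 2000 UMIs, mesenchymal cells had a mean of 1.86 IFN-γ led UMIs labelled KO and 1.62 in WT. After this thinning, 16.7% (10.5 to 24.6) labelled KO and 16.9% (11.7 to 23.3) of WT had UMIs of at least 3 of the genes. The direction in mesenchymal cells thus depended on the measure. Dendritic cells had 226 CPM (200 to 253) and 350 CPM (323 to 379), and NK cells 201 CPM (165 to 241) and 316 CPM (288 to 347). Taken gene by gene, 7 of the 10 IFN-γ led genes had their highest gate in mesenchymal cells of the library labelled KO and 8 of 10 in WT. Type I led genes were spread, with 5 highest in mesenchymal, 4 in macrophage and 2 in dendritic cells of the library labelled KO, and with 6 of 11 highest in macrophages of WT. UMIs of 14 macrophage markers reached 5.44% of the macrophage gate's level in T cells labelled KO and 4.53% in WT, and between 1.77% and 4.94% in the NK, dendritic and mesenchymal gates. Single markers ranged from 1.46% to 254% in T cells labelled KO and from 1.52% to 235% in WT. The summed shares thus include markers read at least as highly in T cells as in macrophages, and do not measure carried RNA. The part of macrophage RNA in the levels of other gates was not tested.

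**Figure D1:**
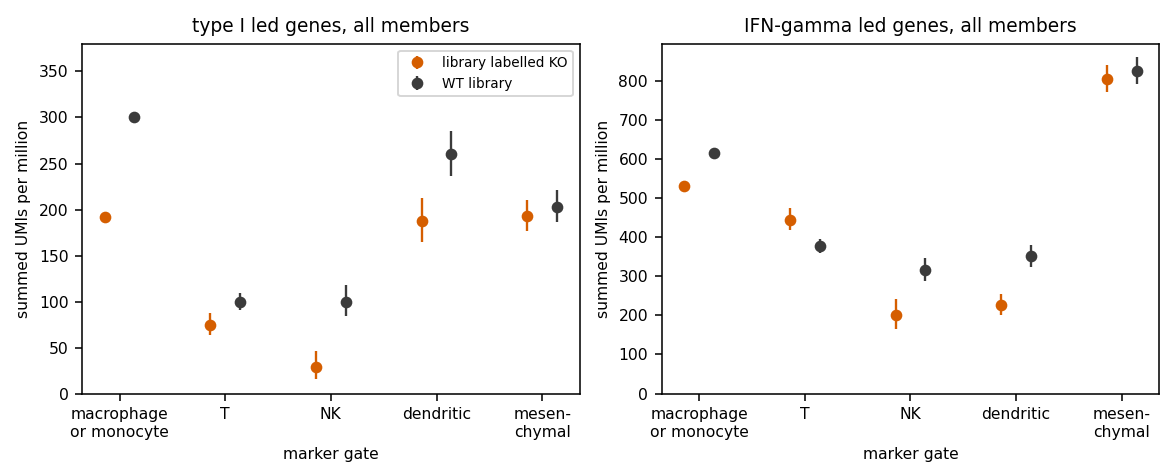
Summed UMIs per 1000000 (CPM) of the 11 type I led genes (left panel) and the 10 IFN-γ led genes (right panel) in the 5 gates, for the library labelled KO (left of each pair) and WT, with 95% Poisson intervals. The type I led sum is lower in the library labelled KO in all 5 gates, and the IFN-γ led sum is lower in 4 and higher in T cells. In mesenchymal cells the intervals of the libraries overlap in both panels.

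Over all cells together, the interferon-stimulated genes were lower in the library labelled KO. Ratios are given as log2 of KO over WT after adding 5 CPM to both levels, which shrinks the ratios of low genes. The ratio was below 0 for 48 of the 51 members, against 53.3% of 18976 genes with at least 20 UMIs, and the members' median was -0.31, against -0.01 over all these genes. Ratios at or under -0.5 were found for 9 members, against 1.11% of all genes, and none reached 0.5, against 1.21% of all genes. The lowest ratios over all cells belonged to Irf7 (28.7 CPM in the library labelled KO, 56.2 CPM in WT, log2 ratio -0.86), Ifit3 (11.0 and 22.2 CPM, -0.77), Ly6a (333 and 567 CPM, -0.76), Oasl2 (34.7 and 60.6 CPM, -0.72), Rtp4 (19.7 and 34.0 CPM, -0.66) and Oas3 (12.5 and 21.8 CPM, -0.62). The 3 members above 0 were Ifih1 (95.7 CPM in the library labelled KO, 66.8 CPM in WT, 0.49), Gbp5 (57.4 and 47.7 CPM, 0.24) and Irgm1 (28.3 and 26.7 CPM, 0.07). Tgtp2, Irf1 and Oasl1, next in order, had ratios between -0.04 and -0.01. All 11 type I led genes were below 0, with a median of -0.37, and 8 of 10 IFN-γ led genes were, with a median of -0.17. Macrophages and monocytes made up 68.9% of the cells labelled KO and 67.0% of WT cells, so the pooled values follow that gate.

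In the macrophage or monocyte gate, the medians of the type I led genes and of the regulators were further below WT than that of the IFN-γ led genes. The ratio was below 0 for 48 of 51 members, against 52% of 16581 genes, with a median of -0.38, against -0.01 over all genes. It was at or under -0.5 for 11 members, against 1.06% of all genes, and at or over 0.5 for 1 member, against 1.23%. The counting interval of the linear ratio lay wholly below 1 for 45 members and wholly above 1 for 2, and it included 1 for 4. The median was -0.45 for the type I led genes, of which all 11 were below 0 and 5 at or under -0.5. It was -0.19 for the IFN-γ led genes, of which 8 of 10 were below 0 and none was at or under -0.5. The difference between the groups has no test with 1 library each. Marker RNA moved as well. The 14 macrophage markers summed to 23567 CPM in this gate in the library labelled KO and 28516 CPM in WT. The 12 mesenchymal markers summed to 1970 CPM, with Pdgfra at 0, and 1296 CPM with all 12 found. Their part in the results was not tested.

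Among the antiviral Ifit genes, Ifit3 was read at 10.5 CPM in macrophages labelled KO and at 24.3 CPM in WT. Its linear ratio was 0.43 (interval 0.39 to 0.48), and 3.47% of cells labelled KO and 7.27% of WT cells had a UMI of it. Ifit2 had 12.4 CPM and 22.2 CPM (log2 ratio -0.65), Ifit1 21.5 CPM and 30.6 CPM (-0.43), and Ifit3b 1.89 CPM and 3.95 CPM (-0.38). All 4 genes of the family were thus lower in the library labelled KO. They sit together on chromosome 19 within 99.3 kb. Ifit3 shares 14.6% of the 60-base stretches near its 3′ end with Ifit3b, so reads could be split between them.

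The OAS enzymes, sensors of double-stranded RNA, gave the next lowest values. Oasl2, the most abundant type I led gene in WT macrophages, was at 35.9 CPM in the library labelled KO and 69.9 CPM in WT, a linear ratio of 0.51 (0.48 to 0.55). Oas3 was at 13.0 CPM and 24.9 CPM, a linear ratio of 0.52 (0.47 to 0.58). Oas2 was at 8.79 CPM and 13.9 CPM (log2 ratio -0.45), and Oas1a at 23.7 CPM and 32.4 CPM (-0.38), although Oas1a shares 60.3% of its 3′ stretches with Oas1g. Oasl1, a neighbour of Oasl2 on chromosome 5 that restrains IRF7 translation, differed little, with 44.0 CPM in the library labelled KO and 46.0 CPM in WT (-0.06). The Mx GTPases, which trap viral nucleocapsids, split in the same way. Mx1 was at 14.3 CPM in the library labelled KO and 25.4 CPM in WT (-0.65), and its neighbour Mx2 at 6.19 CPM and 6.92 CPM (-0.09).

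The IFN-γ led genes varied around a smaller difference. Gbp2, the most abundant of them, was at 153 CPM in macrophages labelled KO and 185 CPM in WT (log2 ratio -0.27), and Gbp7 at 81.9 CPM and 95.1 CPM (-0.20). Iigp1, a GTPase that disrupts parasite vacuoles, was at 61.1 CPM and 83.3 CPM (-0.42), and Ifi47 at 39.1 CPM and 53.4 CPM (-0.40). Gbp5, which also promotes inflammasome assembly, was the exception, with 62.8 CPM in the library labelled KO and 49.97 CPM in WT and a linear ratio of 1.26 (1.19 to 1.33). Gbp3 (38.4 and 41.2 CPM, -0.09), Gbp4 (41.8 and 47.9 CPM, -0.18) and Igtp (22.5 and 30.1 CPM, -0.35) were lower in the library labelled KO. Irgm1, a regulator of the other Irg proteins, was at 28.6 CPM and 27.9 CPM (0.03). Tgtp2 was at 2.47 CPM and 2.63 CPM (-0.03), and its 3′ end is identical to that of Tgtp1 over the stretches compared, so its reads cannot be assigned.

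The regulators were all below WT, with a median of -0.50 and 4 of 9 at or under -0.5. Irf7, the factor that amplifies type I interferon production, had the lowest ratio of the 51 members, with 28.9 CPM in macrophages labelled KO and 62.8 CPM in WT, a linear ratio of 0.46 (0.43 to 0.49). Stat2, a subunit of the ISRE-binding complex, was at 28.7 CPM and 44.2 CPM (log2 ratio -0.54), whereas its partner Irf9 was at 30.3 CPM and 34.0 CPM (-0.14). Usp18, which removes ISG15 from proteins and dampens the type I receptor, was at 12.2 CPM in the library labelled KO and 20.3 CPM in WT (-0.55). Irf1, the relay of the IFN-γ response, was at 87.7 CPM and 93.8 CPM (-0.09). Irf7, Stat2 and Usp18 were thus further from WT than Irf1, while Irf9 lay close to Irf1. The linked genes Parp9, Dtx3l and Parp14, which encode ADP-ribosyltransferases and a ubiquitin ligase partner, had log2 ratios of -0.54, -0.50 and -0.32. Trim30a, which restrains inflammatory signalling, was at 93.3 CPM in the library labelled KO and 118 CPM in WT (-0.32).

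The 2 RNA sensors went in opposite directions. Ifih1, which encodes the double-stranded RNA sensor MDA5, was at 114 CPM in macrophages labelled KO and 78.7 CPM in WT, the highest ratio of the set (log2 ratio 0.51, linear ratio 1.45, interval 1.39 to 1.51). Dhx58, which encodes the related LGP2, was at 12.6 CPM and 18.0 CPM (-0.39).

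All 19 other effectors were below WT, with a median of -0.37, and 2 of them were at or under -0.5. Ly6a, a surface protein known as Sca-1, was at 283 CPM in macrophages labelled KO and 562 CPM in WT, a linear ratio of 0.50, and was found in 46.8% and 66.3% of cells. Rtp4, a receptor chaperone that also restricts some viruses, was at 20.1 CPM in the library labelled KO and 37.4 CPM in WT, a linear ratio of 0.54. Other abundant effectors were closer to WT than Ly6a. Ly6e, which restricts coronavirus entry, was at 948 CPM and 1160 CPM (log2 ratio -0.29), Ifi27l2a at 526 CPM and 686 CPM (-0.38), and Bst2, which encodes the virion tether tetherin, at 212 CPM and 263 CPM (-0.30). Isg15, a ubiquitin-like modifier, was at 121 CPM in the library labelled KO and 140 CPM in WT (-0.20), and Rsad2, which encodes the antiviral enzyme viperin, was at 58.8 CPM and 75.1 CPM (-0.33). Zbp1, a sensor of Z-form nucleic acids, was at 64.7 CPM and 84.4 CPM (-0.36). The remaining 11 effectors (Isg20, Cmpk2, Ifi35, Ifi44, Xaf1, Herc6, Slfn1, Slfn5, Slfn8, Samd9l and Eif2ak2) lay between -0.48 for Slfn1 and -0.12 for Slfn8.

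**Figure D2:**
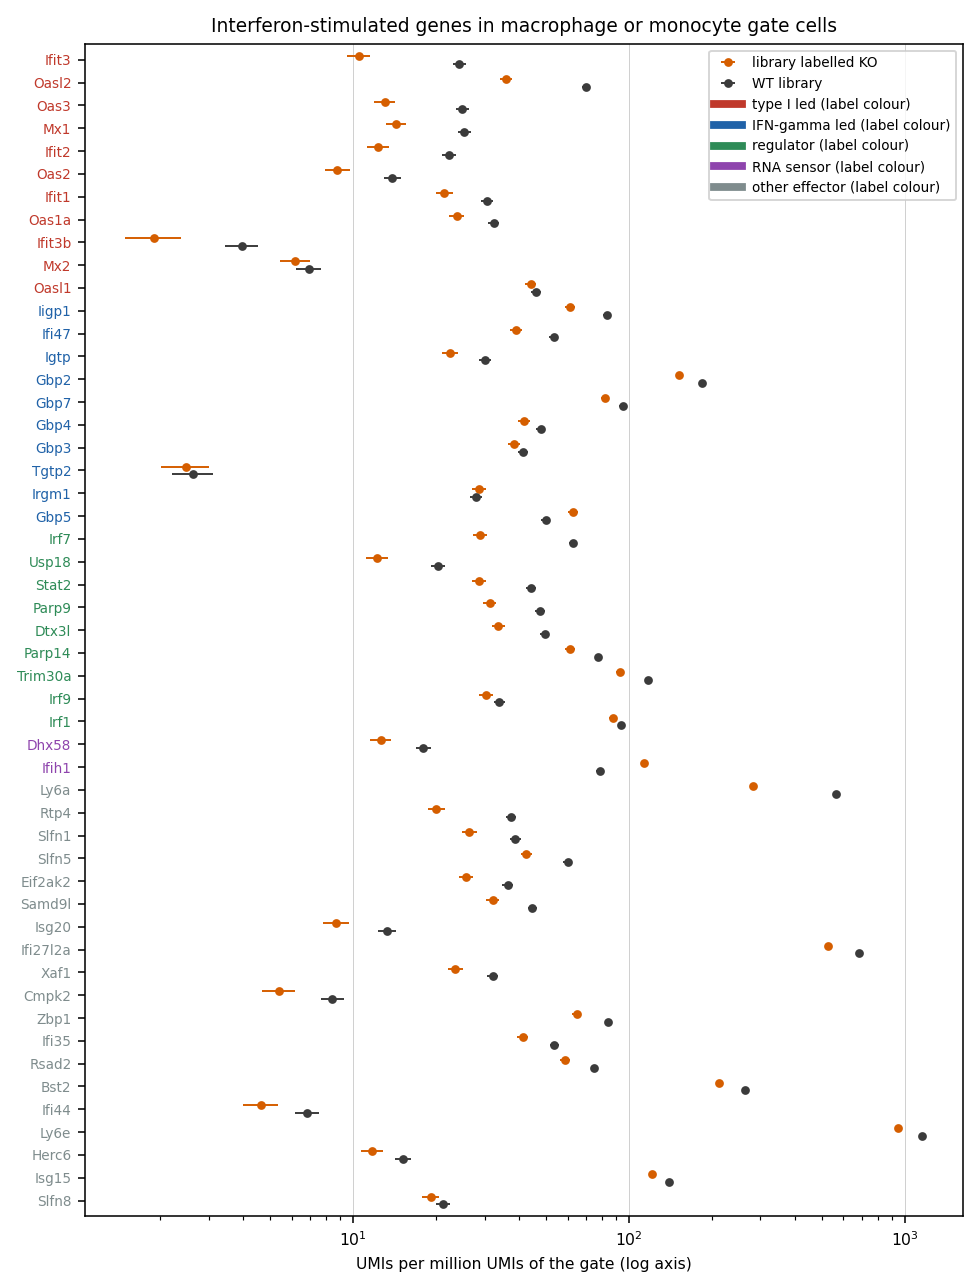
Level in UMIs per 1000000 (log axis) of each of the 51 members in the macrophage or monocyte gate, for the library labelled KO and WT, with 95% Poisson intervals and gene labels coloured by role. Irf7, Ly6a and Ifit3 show the widest gaps below WT on this axis, and Ifih1 and Gbp5 lie above WT.

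The lower type I led level went with fewer cells in which several of these genes were read at once. UMIs of at least 3 of the 11 type I led genes were found in 430 of 3605 macrophage gate cells labelled KO, 11.9% (exact binomial interval 10.9 to 13.0), and in 1032 of 5588 WT cells, 18.5% (17.5 to 19.5). The median depth was 10144 UMIs per cell in the library labelled KO and 9074.5 in WT. After each cell was thinned to 2000 UMIs, for which 243 cells labelled KO and 359 WT cells were too shallow, the shares were 2.23% (1.76 to 2.79) and 5.01% (4.43 to 5.64). The tenth of the thinned cells with the most type I led UMIs held 74.6% of these UMIs in the library labelled KO and 70.0% in WT, at means of 0.427 and 0.686 such UMIs per cell. At these means counting alone leaves most cells at 0, so the shares are given as values only. No type I led UMI was left in 79.1% of thinned cells labelled KO and in 70.8% of thinned WT cells. For at least 3 IFN-γ led genes the unthinned shares were 36.4% in the library labelled KO and 40.7% in WT, and the thinned shares 8.36% (7.44 to 9.35) and 10.5% (9.66 to 11.3). Among T cells, 2.58% labelled KO and 2.21% of WT had 3 type I led genes at medians of 4725 and 3937 UMIs.

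Macrophages were then compared within 12 clusters, made without the 51 members, that held 3394 gated cells labelled KO and 5372 WT cells. The member median was below 0 in all 12 clusters, that of the type I led genes in 11 and that of the IFN-γ led genes in 9. The widest gap was in cluster 11, led by Plac8, Plcb1, Chil3 and the monocyte gene Ly6c2. There the type I led sum was 222 CPM in the library labelled KO and 667 CPM in WT, with a median log2 ratio of -1.47 and 10 of 10 measured genes below 0, against 57.1% of all genes in the cluster, and the IFN-γ led sum was 392.1 CPM and 496 CPM (-0.40). Cluster 1, led by the heat shock gene Hspa1a, had a type I led sum of 358 CPM in the library labelled KO and 666 CPM in WT (-0.82) and an IFN-γ led sum of 257 CPM and 408 CPM (-0.50). Cluster 2 was led by the IFN-γ inducible chemokines Cxcl10 and Cxcl9 and by Ly6i, and had the highest levels of both groups. Its type I led sum was 624 CPM in the library labelled KO and 924 CPM in WT (-0.48), while its IFN-γ led sum was 1839 CPM and 1826 CPM. Cluster 3, led by Fcrls and Ccl8, had a type I led sum of 126 CPM and 225 CPM (-0.61).

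The only cluster with a type I led median above 0 was cluster 9, led by mitochondrial transcripts, with 248 CPM in the library labelled KO and 177 CPM in WT (0.56) at medians of 2232 and 1791.5 UMIs per cell. In cluster 8, led by Ear2, the median log2 ratio (-0.19) and the sum (159 CPM in the library labelled KO, 139 CPM in WT) of the type I led genes had opposite signs. For the IFN-γ led genes this held in cluster 2 (-0.0025; 1839 and 1826 CPM), in cluster 4 (-0.15; 411 and 403 CPM) and in cluster 7 (0.04; 399 and 415 CPM). Cluster 14 was led by the T cell genes Ikzf2 and Ctla4 and made up 1.94% of the gate in the library labelled KO and 1.66% in WT. Cluster shares differed between the libraries, with cluster 3 holding 19.4% of gated cells labelled KO and 6.16% of WT, and cluster 11 holding 9.74% and 5.30%. Another summary gave 14 clusters of the gate, with 3561 cells labelled KO and 5458 WT cells, the same weight in both libraries. The medians were then -0.51 for type I led and -0.10 for IFN-γ led genes, against -0.45 and -0.19 without weights. The part of cluster shares in these differences was not tested.

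**Figure D3:**
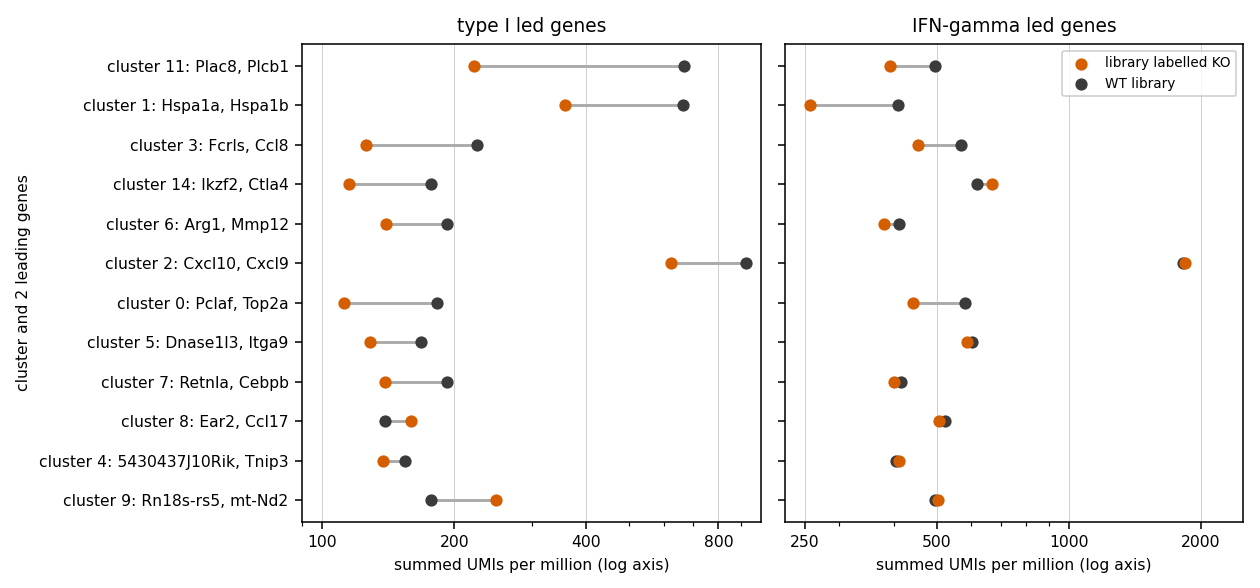
Summed levels in UMIs per 1000000 (log axis) of the type I led genes (left panel) and the IFN-γ led genes (right panel) in each of the 12 macrophage or monocyte clusters, with a line joining the library labelled KO and WT. The type I led gap is widest in cluster 11 (222 and 667 CPM), and the points are in reverse order in cluster 8 (159 and 139 CPM) and cluster 9 (248 and 177 CPM).

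Splitting the library labelled KO by sex type separated the gene groups. The macrophage gate held 2058 female-type and 890 male-type cells labelled KO and 4559 male-type WT cells. Summed type I led levels were 189 CPM (183 to 195) in female-type cells labelled KO and 200 CPM (192 to 209) in male-type cells labelled KO, against 285 CPM (280 to 290) in male-type WT cells. Both kinds of cells labelled KO were thus below WT. The IFN-γ led sum was 433 CPM (424 to 442) in female-type and 688 CPM (672 to 705) in male-type cells labelled KO, against 612 CPM (605 to 619) in male-type WT cells. The IFN-γ led sums of the cells labelled KO therefore lay on both sides of WT, and only that of the female-type cells was below it. The kinds also differed in cluster makeup. Cluster 2, the highest in IFN-γ led genes, held 93 of the 2058 female-type and 102 of the 890 male-type cells labelled KO, and cluster 3 held 536 and 81. Within cluster 2 the IFN-γ led sums were 1837 CPM in female-type and 1780 CPM in male-type cells labelled KO, against 1833 CPM in male-type WT cells. Within cluster 3 they were 374 CPM and 801 CPM, against 565 CPM. The part of cluster makeup in the gate's sums by sex type was not tested.

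Member by member, 37 of the 51 were below male-type WT cells in both kinds of cells labelled KO, against 39.2% of 16124 genes, 11 in female-type cells alone, 1 (Mx2) in male-type cells alone, and 2 (Tgtp2 and Ifih1) in neither. Of the type I led genes, 9 of 11 were below WT in both kinds, and of the IFN-γ led genes 3 of 10 in both and 6 in female-type cells alone. The log2 ratio was at or under -0.5 in both kinds for 7 members, Ifit3, Mx1, Oas3, Oasl2, Irf7, Stat2 and Rtp4, against 0.831% of all genes. Irf7 was at 28.4 CPM in female-type and 28.5 CPM in male-type cells labelled KO, against 59.2 CPM in male-type WT cells. Oasl2 was at 32.2 CPM and 42.3 CPM, against 67.0 CPM in male-type WT cells, and Oas3 at 11.7 CPM and 14.4 CPM, against 23.8 CPM. All 3 genes were below WT in both kinds of cells labelled KO. Gbp2 was at 115 CPM in female-type and 217 CPM in male-type cells labelled KO, against 184 CPM in male-type WT cells. Gbp4 was at 31.7 CPM and 58.5 CPM, against 47.6 CPM, and Iigp1 at 46.9 CPM and 85.4 CPM, against 82.7 CPM. Ly6a, the effector furthest below WT in the whole gate, was at 179 CPM in female-type and 463 CPM in male-type cells labelled KO, against 556 CPM in male-type WT cells. Its log2 ratio over male-type WT cells was -1.60 in female-type and -0.26 in male-type cells labelled KO, so the female-type cells carried most of its difference.

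The median log2 ratio of male-type cells labelled KO over male-type WT cells was -0.54 for the type I led genes, with 10 of 11 below 0, and 0.15 for the IFN-γ led genes, with 3 of 10 below 0, against 62.8% of 15204 genes. For female-type cells labelled KO over male-type WT cells it was -0.36 and -0.39, with 10 of 11 and 9 of 10 genes below 0, against 48.5% of 15820 genes. Within 9 macrophage clusters holding at least 50 cells of each kind, the type I led sum was below WT in 9 of 9 for female-type and in 9 of 9 for male-type cells labelled KO. The gaps differed in size, and no interval was computed for them. The smallest was in cluster 5, with 169 CPM in 55 female-type cells, against 172 CPM in male-type WT cells. The widest was in cluster 11, with 211 CPM in male-type cells labelled KO, against 662 CPM. The IFN-γ led sum was below WT in 8 of 9 clusters for female-type and in 4 of 9 for male-type cells labelled KO. Whether the kinds come from different animals was not tested.

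**Figure D4:**
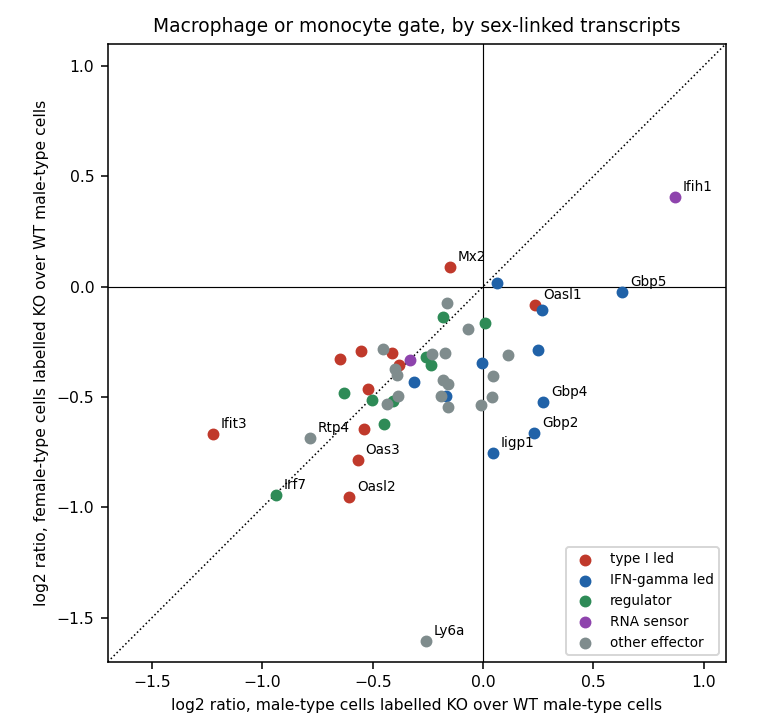
Log2 ratio of each of the 51 members in the macrophage or monocyte gate, for male-type cells labelled KO over male-type WT cells (horizontal) and for female-type cells labelled KO over male-type WT cells (vertical), coloured by role, with lines at 0 and a dotted line of equal ratios. Irf7 lies on the dotted line near -0.94 on both axes, Ly6a lies far below it at -0.26 and -1.60, and Gbp2 and Gbp4 are right of 0 and below 0.

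In T cells the groups diverged in direction. Of the 47 members measured with at least 20 UMIs, 22 were below 0, against 52.6% of 11218 genes, with a median of 0.03, against -0.02 over all genes. These values pool the cells of the gate. With its clusters weighted alike in both libraries, the members' median was -0.19, against -0.03 over all genes. Ratios at or under -0.5 were found for 6 members, against 4.27% of all genes, and at or over 0.5 for 3, against 4.91%. Type I led genes had a median of -0.23, with 6 of 9 below 0, and all 10 IFN-γ led genes were above 0, with a median of 0.25, against 47.4% of all genes. The lowest ratios were those of Ifit2 (2.79 CPM in the library labelled KO, 9.59 CPM in WT, log2 ratio -0.91, from 6 and 43 UMIs), Mx1 (13.96 and 26.5 CPM, -0.73) and Ifit3 (5.12 and 11.8 CPM, -0.73). The highest were those of Rsad2 (19.1 and 8.48 CPM, 0.84, from 41 and 38 UMIs), Tgtp2 (6.98 and 2.90 CPM, 0.60, from 15 and 13 UMIs) and Ifi27l2a (825 and 555 CPM, 0.57, linear ratio 1.49, interval 1.40 to 1.58). Among the fixed genes, Irf7 was lower, at 18.6 CPM in the library labelled KO and 31.0 CPM in WT (-0.61). Gbp2 (35.4 and 28.8 CPM), Irgm1 (19.5 and 13.8 CPM) and Iigp1 (37.7 and 34.1 CPM) were higher in the library labelled KO, each with an interval that included a ratio of 1. Ly6e (741 and 747 CPM), Ly6a (519 and 497 CPM) and Bst2 (87.0 and 87.0 CPM) were near WT. Isg15 (38.6 and 45.7 CPM, -0.22) and Ifit1 (13.96 and 17.4 CPM, -0.24) lay lower, with intervals that included a ratio of 1.

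By sex type, over male-type WT cells, the type I led median was -0.62 in the 104 male-type and 0.10 in the 221 female-type T cells labelled KO, and the IFN-γ led median was 0.18 in each. The T gate differed in makeup between the libraries. Cluster 23, which carried Cd8a at 707 CPM in cells labelled KO and 704 CPM in WT, held 33.1% of T gate cells labelled KO and 53.0% of WT, and cluster 15, which carried the regulatory T cell gene Foxp3 at 375 CPM and 322 CPM, held 26.4% and 16.8%. The IFN-γ led sum was higher in cluster 13 (553 CPM labelled KO, 507 CPM WT) and cluster 15 (854 and 884 CPM) than in cluster 18 (265 and 247 CPM) and cluster 23 (228 and 234 CPM).

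Within the clusters, the medians over all measured members were -0.28 in cluster 13, -0.30 in cluster 15, 0.04 in cluster 18 and -0.24 in cluster 23. Over all genes they were -0.07, -0.03, 0.01 and -0.02. The IFN-γ led medians were 0.06 in cluster 13, 0.10 in cluster 15, -0.03 in cluster 18 and -0.18 in cluster 23. With the 4 clusters weighted alike in both libraries, the IFN-γ led sum was 433 CPM in the library labelled KO and 431 CPM in WT, with a median of 0.08. Without weights, the T gate's sums were 445 CPM and 377 CPM, with a median of 0.25. Summed over all 51 members, the weighted level was 3418 CPM in the library labelled KO and 3802 CPM in WT. Without weights it was 3615 CPM and 3345 CPM. The part of cluster makeup in these differences was not tested. Under the same weights the type I led sum was 70.9 CPM in the library labelled KO and 125 CPM in WT, with a median of -0.49, and it was lower in each of the 4 clusters. In cluster 13 it was 180 CPM in the library labelled KO and 280 CPM in WT, and in cluster 23 it was 22.7 CPM and 56.7 CPM.

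**Figure D5:**
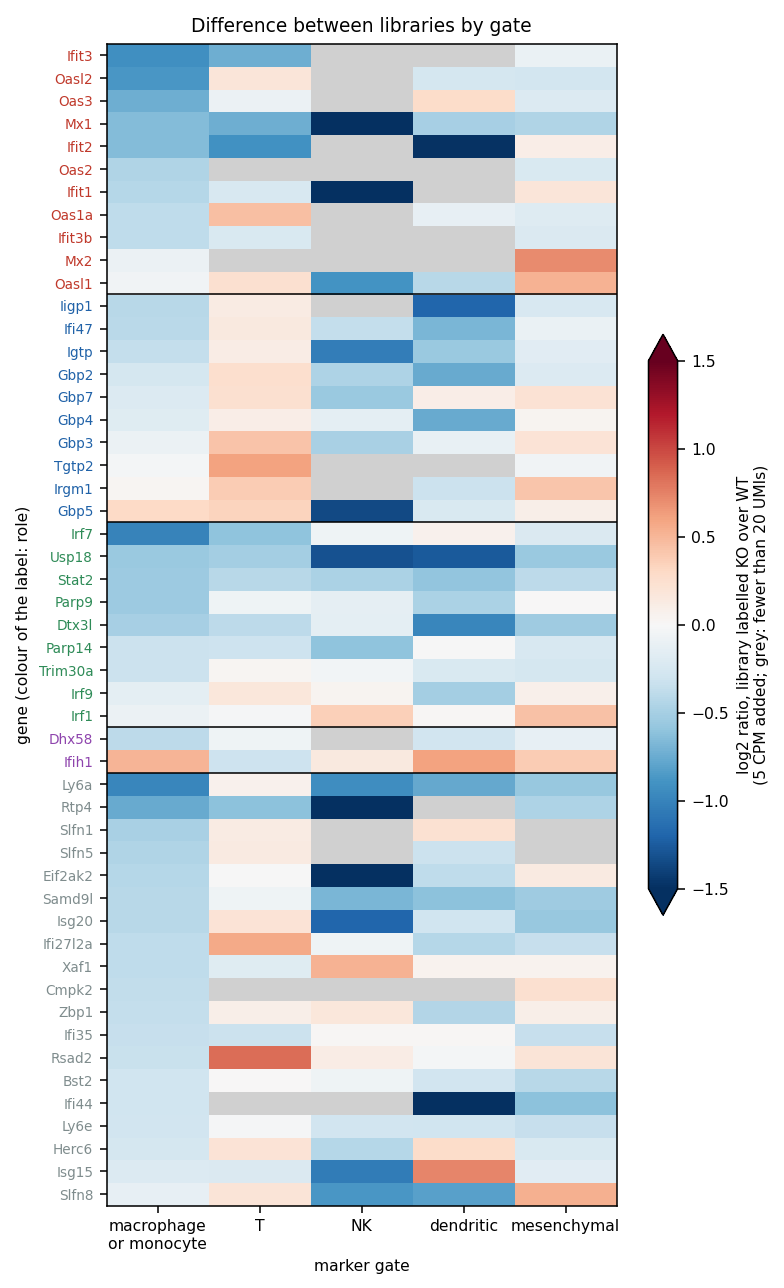
Heat map of the log2 ratio of KO over WT of each member (rows, label colour by role) in the 5 gates (columns), from blue (lower in the library labelled KO) to red (higher), with colours capped at 1.5 in size and grey for members with fewer than 20 UMIs. The macrophage column is blue but for a few members such as Ifih1 and Gbp5, and the 10 IFN-γ led rows are all red in the T column.

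In NK cells most members were lower in the library labelled KO, from the fewest UMIs of the 5 gates. The 66 cells labelled KO gave few UMIs, and 35 of the 51 members reached 20 UMIs over both libraries, so a low member passed mainly through WT. Of these, 28 were below 0, against 54.4% of 8052 genes, with a median of -0.47, against -0.04 over all genes. Ratios at or under -0.5 were found for 15 members, against 11.9% of all genes, and at or over 0.5 for 1, against 7.38%. The counting interval of the ratio lay below 1 for 12 members and included 1 for 23. Ifit1 had 1 UMI in the library labelled KO and 25 in WT (linear ratio 0.099, interval 0.0024 to 0.61), and Rtp4 and Mx1 each had 2 and 27 UMIs (0.18, interval 0.021 to 0.73). Eif2ak2, which encodes the translation-blocking kinase PKR, had 6 UMIs and 58 UMIs (10.7 and 41.4 CPM, log2 ratio -1.57). Isg15 (21.3 CPM in the library labelled KO, 49.3 CPM in WT, -1.05) and Ly6a (46.2 and 92.9 CPM, -0.94) were lower as well. The 7 members above 0, against 45.6% of all genes, had intervals that included a ratio of 1, among them Xaf1 (32.0 CPM in the library labelled KO, 20.7 CPM in WT, 0.52), Irf1 (71.0 and 54.3 CPM, 0.36) and Zbp1 (49.7 and 43.6 CPM, 0.17). The abundant Ly6e was at 770 CPM and 939 CPM (-0.28), while Bst2 (87.0 and 91.4 CPM), Irf7 (28.4 and 30.0 CPM) and Rsad2 (21.3 and 19.3 CPM) were near WT. Gbp2 was at 17.8 CPM and 26.4 CPM (-0.47), and all 7 measured IFN-γ led genes were below 0, with a median of -0.48. Iigp1 (0 UMIs in the library labelled KO, 8 in WT), Irgm1 (2 and 14) and Ifit3 (0 and 3) were too low to compare. The member median was -0.48 in the 14 male-type cells labelled KO over male-type WT cells and -0.32 in the 45 female-type cells over all WT cells.

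In dendritic cells, which present antigen to T cells, both groups were below WT. Of 43 measured members, 33 were below 0, against 55.5% of 8871 genes, with a median of -0.32, against -0.04 over all genes. Ratios at or under -0.5 were found for 15, against 8.43% of all genes, and at or over 0.5 for 2, against 6.1%. The median was -0.56 for the IFN-γ led genes, with 8 of 9 below 0, and -0.34 for the type I led genes, with 5 of 6 below 0. By sex type these medians rest on few genes. In the 34 male-type cells labelled KO over male-type WT cells they were -1.002 for 9 IFN-γ led and -1.51 for 4 type I led genes. In the 79 female-type cells they were -0.52 for 9 and -0.22 for 6 genes. The type I led genes measured were thus not the same, and the order of the medians is given as values only. The member medians were -0.76 in male-type and -0.33 in female-type cells. A member low in the library labelled KO could pass the minimum of 20 UMIs through WT alone, as Ifi44 did. The lowest ratios were those of Ifi44 (0.78 CPM in the library labelled KO, 13.3 CPM in WT, from 1 and 23 UMIs), Ifit2 (4.69 and 22.0 CPM, log2 ratio -1.48) and Usp18 (9.37 and 29.5 CPM, -1.26). Iigp1 (7.81 CPM in the library labelled KO, 24.3 CPM in WT, -1.19), Gbp2 (56.2 and 98.3 CPM, -0.75) and Ly6a (88.3 and 154 CPM, -0.77) were lower too. Isg15 went the other way, with 151 CPM in the library labelled KO and 89.1 CPM in WT, a linear ratio of 1.69 (1.36 to 2.11). Ifih1 did so too, at 55.5 CPM and 34.7 CPM, a ratio of 1.60 (1.12 to 2.29), and Oas3 was next (10.2 and 7.52 CPM, log2 ratio 0.28, from 13 UMIs in each). Ly6e (484 CPM in the library labelled KO, 599 CPM in WT), Bst2 (122 and 149 CPM) and Irgm1 (15.6 and 20.8 CPM) were lower, and Irf7 (49.99 and 47.4 CPM) and Rsad2 (22.7 and 23.1 CPM) were near WT. Ifit1 (10 UMIs in the library labelled KO, 6 in WT) and Ifit3 (5 and 5) were below the minimum.

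In mesenchymal cells the members' median was closest to 0 among the gates other than T. Of 49 measured members, 30 were below 0, against 56.8% of 11496 genes, with a median of -0.17, against -0.04 over all genes. Ratios at or under -0.5 were found for 6, against 4.45% of all genes, and at or over 0.5 for 3, against 3.12%. Medians were -0.20 for the type I led genes and -0.01 for the IFN-γ led genes, with 5 of the 10 on each side of 0. Ifi44 (21.4 CPM in the library labelled KO, 35.3 CPM in WT, -0.61), Isg20, an exonuclease (19.4 and 31.3 CPM, -0.57), and Ly6a (928 and 1379 CPM, -0.57) had the lowest ratios. Mx2 (7.38 and 2.55 CPM, 0.71, from 19 and 7 UMIs), Slfn8 (10.1 and 5.45 CPM, 0.53) and Oasl1 (7.38 and 3.64 CPM, 0.52) had the highest, all at low counts. Irgm1 was higher in the library labelled KO (59.9 and 43.6 CPM, linear ratio interval 1.07 to 1.76). Bst2 (257 and 344 CPM, -0.41), Ly6e (595 and 755 CPM, -0.34), Gbp2 (162 and 189 CPM, -0.21) and Iigp1 (145 and 172 CPM, -0.24) were lower. Ifit1 (56.4 and 49.1 CPM), Ifit3 (22.2 and 24.0 CPM), Isg15 (91.7 and 104 CPM), Irf7 (12.4 and 15.3 CPM) and Rsad2 (20.99 and 17.8 CPM) had intervals that included a ratio of 1.

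The interferon genes themselves were sparse. In the macrophage gate Ifnb1, the interferon beta gene, had 180 UMIs in 97 cells labelled KO, a level of 4.55 CPM (3.91 to 5.26), and 87 UMIs in 50 WT cells, 1.62 CPM (1.30 to 2.00), so it was higher in the library where the type I led genes were lower. Its level was 4.17 CPM in female-type and 5.24 CPM in male-type cells labelled KO, against 1.47 CPM in male-type WT cells. No UMI of Ifna1, Ifna4, Ifna5, Ifna6, Ifna9, Ifne, Ifnl2 or Ifnl3 was counted in the gate in either library, and Ifna2 had 2 UMIs in the library labelled KO and 0 in WT. Ifnk had 15 UMIs and 12 UMIs. Ifng was read mainly in lymphocytes. T cells had 303 CPM of it in the library labelled KO and 407 CPM in WT (log2 ratio -0.42), and NK cells 146 CPM and 111 CPM (0.37). Dendritic cells had 21 UMIs and 3 UMIs. In macrophages it had 69 UMIs in the library labelled KO and 220 in WT, of which a single WT cell held 42.

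Both type I receptor chains were near WT in macrophages, and the ligand-binding IFN-γ receptor chain was lower. Ifnar1 was at 126 CPM in the library labelled KO and 127 CPM in WT, Ifnar2 at 117 CPM and 118 CPM, and Ifngr2 at 109 CPM and 112 CPM. Ifngr1, which encodes that chain, was at 196 CPM and 233 CPM (log2 ratio -0.24). Il10rb, a chain shared with the interferon lambda receptor, was at 80.1 CPM in the library labelled KO and 66.4 CPM in WT (0.25), and Ifnlr1 had 4 UMIs and 25 UMIs. Of the 12 signalling genes measured, 9 were below 0, against 52% of all genes in the gate, with a median of -0.11. Socs3, an inhibitor of cytokine signalling, was at 422 CPM in the library labelled KO and 317 CPM in WT (0.41). Jak1 (168 and 180 CPM), Jak2 (176 and 170 CPM), Tyk2 (24.98 and 27.7 CPM) and Socs1 (13.4 and 13.8 CPM) had linear ratios between 0.90 and 1.03. The transcription factors Irf8 (200 and 233 CPM, -0.22), Irf5 (107 and 118 CPM, -0.14) and Irf3 (19.5 and 16.8 CPM, 0.17) and the phosphatases and ligase Ptpn2 (91.0 and 111 CPM, -0.27), Ptpn6 (167 and 177 CPM, -0.08) and Pias1 (100.4 and 109 CPM, -0.12) were measured as well.

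Interferon-responsive genes outside the 51 were compared as lists in the macrophage gate. Of 38 measured other type I responsive genes, 32 were below 0, against 52% of all genes, with 6 at or under -0.5, against 1.06%, and a median of -0.21, and Slfn2, a regulator of immune cell quiescence, was the 1 gene at or over 0.5 (317 CPM in the library labelled KO, 212 CPM in WT, 0.57). Of 33 measured other IFN-γ responsive genes, 28 were below 0, with 4 at or under -0.5 and a median of -0.17, beside the same shares of all genes. These 4 were Ciita, the master activator of MHC class II genes (78.4 CPM in the library labelled KO, 128 CPM in WT, -0.67), Gbp8 (-0.56), the peptide transporter gene Tap1 (-0.54) and the invariant chain gene Cd74 (-0.51). The chemokine Cxcl9 was near WT (647 and 668 CPM, -0.04) and Cxcl10 above it (394 and 322 CPM, 0.29). In T cells 21 of 27 measured other IFN-γ responsive genes and 23 of 34 other type I responsive genes were above 0, against 47.4% of all genes, with medians of 0.13 and 0.16 that were not recomputed with clusters weighted alike. In NK cells 16 of 21 other IFN-γ responsive genes were below 0 (median -0.24), against 54.4% of all genes, and in dendritic cells 15 of 25 (-0.06), near the 55.5% of all genes.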

How the data were processed

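The authors deposited unnormalized UMI counts, in a sparse matrix for each library. Per the file headers, Cell Ranger 8.0.1 wrote them. Build mm10 and Seurat 3 are named in the submitters' processing notes. Barcodes are 16 bases long, as in droplet kits, although the labels' protocols tell of magnetic beads in a microwell chip. Which chemistry was used is unsettled. All count columns were assigned to a library, with 0 left unused. No source used here states a filter applied before deposit.

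Barcodes with at least 500 UMIs, 200 genes and at most 25% mitochondrial UMIs were kept. Scrublet's automatic threshold marked 0.0362% of barcodes labelled KO and 0% of WT, so cells in the top 5% of doublet scores were removed (280 labelled KO and 457 WT). Each cell was gated to the class, of 12, with the highest mean marker score, each marker scaled to its 90th percentile over expressing cells, when that score was at least 0.2, at least 3 markers were found and the next class scored at most 0.5 of it. Neutrophil, mast, B, osteoclast, plasmacytoid and endothelial gates held under 50 cells in a library and were not compared. Sums of counts per gate were expressed as CPM, and ratios use a pseudocount of 5 CPM and genes with at least 20 UMIs over both libraries. A ratio past 0.5 in size counts as past the fold used. UMI counts are not per length, so levels are compared between cells and not between genes. Intervals are exact Poisson (levels), exact conditional (ratios) and Clopper-Pearson (shares). Clusters came from 2000 variable genes without the members, 30 components, 15 neighbours and Leiden resolution 1 with seed 0, without batch correction. Gates, clusters and sex types were set per cell, and cells are not replicates. Simulated data with planted ratios were used to check the computation.

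Members, role groups, lists and the rule for named genes were chosen with earlier results of these data known. In the macrophage gate and over all cells the rule names the 8 most abundant members and the 6 lowest and 6 highest ratios, with the 3 most abundant type I led and IFN-γ led genes. In other gates it names the 3 lowest, the 3 highest and 11 fixed genes. Further members were named for their role, after their values were seen. Coordinates come from GENCODE M21 on GRCm38 (mm10), and promoters from RefSeq on GRCm38.p6. Python 3.11.15, scanpy 1.11.5, numpy 2.4.6, scipy 1.17.1, pandas 2.3.3 and matplotlib 3.10.9 were used. Alternatives, whose effect is given at the end, changed filters, doublet removal, scaling, pseudocount, gene minimum, gate, sex type and depth. Some values of the signalling list are not reported here.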

Additional observations from a re-analysis of the deposited data

Results flagged for a closer look

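In 5 cases the median log2 ratio of KO over WT was above 0 in 1 set of cells and below 0 in another. With 1 library per genotype, the difference was not tested in any of them. The IFN-γ led median of T cells minus that of macrophages was 0.44. For the same genes, the NK gate minus the T gate gave -0.73, and the dendritic gate minus the T gate gave -0.81. With the T clusters weighted alike, the T gate's own IFN-γ led median was 0.08 in place of 0.25. In macrophages, the IFN-γ led median of female-type cells minus that of male-type cells of the library labelled KO, each over male-type WT cells, was -0.54. In T cells, the type I led median of female-type minus male-type cells of the library labelled KO was 0.72, from medians of 0.10 over 8 genes and -0.62 over 7. The genes measured were thus not the same, and the difference is given as a value only.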

How the results depend on the processing

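Across 18 alternatives, 41 to 49 members were lower over all cells. The member median of NK cells, -0.47 as reported, ranged from -0.55 to -0.28, but Ly6e was the only member left at a minimum of 200 UMIs, and cluster weighting and both cluster removals could not change that gate. The T gate's member median, 0.03 as reported, ranged from -0.19, with clusters weighted alike, to 0.15, so its sign was not stable. In macrophages the member median ranged from -0.46 to -0.23 and the type I led median from -0.78 to -0.29, both below 0 throughout. The IFN-γ led median of macrophages, -0.19 as reported, was 0.15 with male-type cells alone, -0.40 with female-type cells labelled KO against WT and -0.10 with clusters weighted alike. The all-cell member median, -0.31 as reported, was -0.37 with a pseudocount of 1 CPM, -0.22 with 20 CPM and -0.34 when mitochondrial genes and the 50 most abundant genes were left out of the scaling. It was -0.23 with male-type cells alone, -0.39 with female-type cells labelled KO and -0.37 with clusters weighted alike. The macrophage member median was -0.23 with male-type cells alone. The type I led median of macrophages was -0.78 with a pseudocount of 1 CPM, -0.29 with 20 CPM and -0.61 after thinning. The share of macrophages with 3 type I led genes was 13.7% in the library labelled KO and 19.1% in WT with male-type cells alone, 10.6% and 18.5% with female-type cells labelled KO, 10.8% and 18.1% with the stricter gate, and 2.23% and 5.01% after thinning. It was lower in the library labelled KO each time. Leaving out the mitochondrial cluster, leaving out the cluster led by T cell genes and weighting clusters alike were chosen after seeing the data. No paired analysis was possible because there is 1 library per genotype and the labels give no replicate numbers. Depth limits the NK gate most, where the type I led sum of the library labelled KO rests on 16 UMIs.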

Other observations

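Of the 51 members, 28 lie in 10 loci with neighbouring members (gaps under 500 kb in GENCODE M21, GRCm38), and neighbours did not always share a ratio in macrophages. The 4 Ifit genes (chromosome 19, 34550694 to 34650009) had log2 ratios from -0.92 to -0.38, and the 3 Oas genes (chromosome 5, 120730333 to 120907521) from -0.73 to -0.38, all below 0. The 4 Gbp genes of chromosome 3 (142493978 to 142638008) ranged from -0.27 to 0.30, with Gbp5 alone above 0. Oasl2 and Oasl1, within 41.0 kb on chromosome 5, had -0.87 and -0.06, and Ly6a and Ly6e, within 43.0 kb on chromosome 15, had -0.98 and -0.29. Of the 51 members, 43 shared no 60-base stretch with another gene in the last 600 bases of their longest transcript, and 3 shared over 10% (Tgtp2, Oas1a and Ifit3).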
